A study of Homo sapiens with 6 samples.

Results

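The immediate early and stress response genes are transcripts that cells switch on quickly after growth factor, cytokine or stress signals. In 786-O cells, a human clear cell renal carcinoma line, 42 such genes were looked up by symbol in the deposited table of read counts, which compares RNA pulled down with IGF2BP2 against input RNA. All 42 were among its 20020 genes, and 40 had enough reads to be tested. IGF2BP2 is a cytoplasmic RNA-binding protein with KH domains that is known as a reader of N6-methyladenosine and as a factor that stabilises many mRNAs. RNA immunoprecipitation sequencing (RIP-seq) measures which transcripts come down with it.

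The 6 libraries form 2 groups, 3 of RIP with anti-IGF2BP2 and 3 of input. Both groups came from the same line, grown in RPMI1640 with fetal bovine serum. The labels name no genetic change, drug, serum starvation, growth factor pulse or stress in either group, so the levels are taken as those of cells in ordinary culture. The labels describe the RNA as polyadenylated and do not say whether replicates are separate cultures, so the spread between libraries may be technical. None of the 6 libraries is a pull-down with an unrelated antibody. Transcripts brought down with IGF2BP2 and those brought down unspecifically therefore cannot be told apart.

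Immediate early genes are transcribed without new protein synthesis: MAP kinases, the serum response factor SRF with its ELK partners, and CREB act on their promoters. Their mRNAs are typically short-lived, since AU-rich elements in many of them are bound by decay factors, and several of the proteins switch the same signal off again. In the integrated stress response, kinases that phosphorylate the initiation factor eIF2 lower general translation while *ATF4* mRNA is translated more, and ATF4 then drives further stress genes. In renal carcinoma cells these genes are known mostly for roles in growth, survival and inflammation.

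The promoters below are shown because the elements in capitals are those through which such signals are read. They are the 250 bases before the start of transcription in RefSeq (build GRCh38.p14), 5′ to 3′ on the gene's strand. *EGR1* lies on the plus strand and its sequence covers chr5:138465229-138465478, *JUND* on the minus strand with chr19:18281623-18281872, *DUSP1* on the minus strand with chr5:172771196-172771445, and *PPP1R15A* on the plus strand with chr19:48872171-48872420. Capitals mark CArG boxes, the element bound by SRF, in *EGR1*, and the cyclic AMP response element TGACGTCA, bound by CREB and ATF factors, in the other genes.
EGR1: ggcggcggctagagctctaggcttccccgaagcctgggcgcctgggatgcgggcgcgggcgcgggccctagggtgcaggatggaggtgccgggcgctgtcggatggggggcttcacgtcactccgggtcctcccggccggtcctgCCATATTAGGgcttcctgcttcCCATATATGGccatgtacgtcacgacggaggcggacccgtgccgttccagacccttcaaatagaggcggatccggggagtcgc
JUND: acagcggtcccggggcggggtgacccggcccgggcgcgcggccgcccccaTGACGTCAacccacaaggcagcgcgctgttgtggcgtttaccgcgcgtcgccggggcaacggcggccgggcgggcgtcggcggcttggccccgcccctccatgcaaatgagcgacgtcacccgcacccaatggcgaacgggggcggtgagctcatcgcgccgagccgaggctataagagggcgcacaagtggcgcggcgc
DUSP1: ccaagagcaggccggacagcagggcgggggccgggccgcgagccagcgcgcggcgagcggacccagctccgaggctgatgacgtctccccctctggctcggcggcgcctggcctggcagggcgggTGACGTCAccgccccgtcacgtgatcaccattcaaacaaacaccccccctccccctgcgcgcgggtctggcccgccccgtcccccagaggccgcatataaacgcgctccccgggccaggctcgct
PPP1R15A: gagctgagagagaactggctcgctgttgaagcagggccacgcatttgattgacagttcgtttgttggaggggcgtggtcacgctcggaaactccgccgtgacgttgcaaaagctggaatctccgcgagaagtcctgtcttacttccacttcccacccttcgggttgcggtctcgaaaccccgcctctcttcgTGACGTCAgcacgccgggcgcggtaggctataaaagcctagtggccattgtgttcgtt
The CArG boxes of *EGR1* began 105 and 83 bases before the start. The other matches began 200 bases before it in *JUND*, 125 in *DUSP1* and 58 in *PPP1R15A*. RefSeq promoters were matched for 32 of the 42 members, 45 in all, and of these members 11 were enriched and 15 depleted in RIP by the test described next, which called 40.7% of all tested genes enriched and 42% depleted. Both strands were searched for CArG boxes (by the name of that element), TGACGTCA, the AP-1 element TGANTCA and the ATF4 element TGATGNAA. A gene was counted where any of its promoters matched, which for *EGR2*, *ZFP36L1*, *MAFF* and *ATF3* was not all of them. A CArG box occurred in 1.16% of 35116 promoters (1.44% of 27305 genes) and in promoters of *EGR1* and *EGR2*, both enriched in RIP. TGACGTCA occurred in 1.65% of promoters (2.03% of genes) and in 5 members: *JUND*, *DUSP1* and *PPP1R15A* were depleted, *ZFP36L1* was enriched, and *MAFF* was not called. TGANTCA, found in 6.57% of promoters (8.06% of genes), was in promoters of *CXCL8* and *DDIT3*, both depleted. TGATGNAA, found in 3.14% (3.89% of genes), was in a promoter of *ATF3*, not called. Elements farther than 250 bases from the start, or with a changed base, were not searched for, so a gene without a match may still have one. These matches are descriptions of the sequence, and members with the same element lay on both sides of input for TGACGTCA.

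Levels below are read counts scaled to library size (CPM, after TMM scaling) or, where genes are compared with each other, FPKM, which also divides by gene length. CPM is a share of a library, so a lower share and more RNA of other genes cannot be told apart, nor can fewer cells with a transcript and less of it per cell. A gene is called enriched (higher in RIP than in input) or depleted (lower) at an adjusted p under 0.05 in edgeR's quasi-likelihood test over 12856 genes. The libraries held 33872621 to 44045835 reads in RIP and 25773819 to 27226405 in input, and the members took 0.487% to 0.513% of them in RIP and 0.386% to 0.391% in input. Libraries of one group correlated at 0.994 to 0.995 and libraries of different groups at 0.917 to 0.921 (Pearson, log2 CPM over genes, which are not independent replicates). Of 9 renal line markers, 8 exceeded 20 CPM in every library, the exception being *CA9* at 1.64 ± 0.352 CPM in RIP and 7.66 ± 0.739 CPM in input (SD, n = 3 each). Endothelial markers reached at most 2.33 CPM and immune markers 0.352 CPM in any library.

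The members divided about evenly: 17 of 40 were enriched (42.5%) and 18 depleted (45.0%), beside 40.7% and 42% of all tested genes. The shares of members called were thus near those of the background. At 2-fold or more, 9 members were enriched (22.5%) and 8 depleted (20%), beside 15.1% and 19.7% of all genes. All RIP libraries lay above all inputs for 17 members (42.5%, 40.9% of all genes) and below them for 18 (45.0%, 42.2% of all genes), and for the other 5 the groups overlapped. The median log2 fold change was -0.0056 over the members and -0.024 over all tested genes, with quartiles of -0.80 and 0.97 for the members and -0.79 and 0.68 for all genes. The plot of fold changes by role shows the members by family, with no test of a family as a whole. The 3 ZFP36 genes, the 2 tested EGR genes and 2 of 3 NR4A genes were enriched, and the 3 JUN genes (*JUN* alone after a correction for gene length), the 2 GADD45 genes and 4 of 5 integrated stress response genes were depleted. The FOS, DUSP and BTG families held both enriched and depleted genes. *FOS*, the only depleted gene of its family, was no longer called after the correction for gene length.

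**Figure D1:**
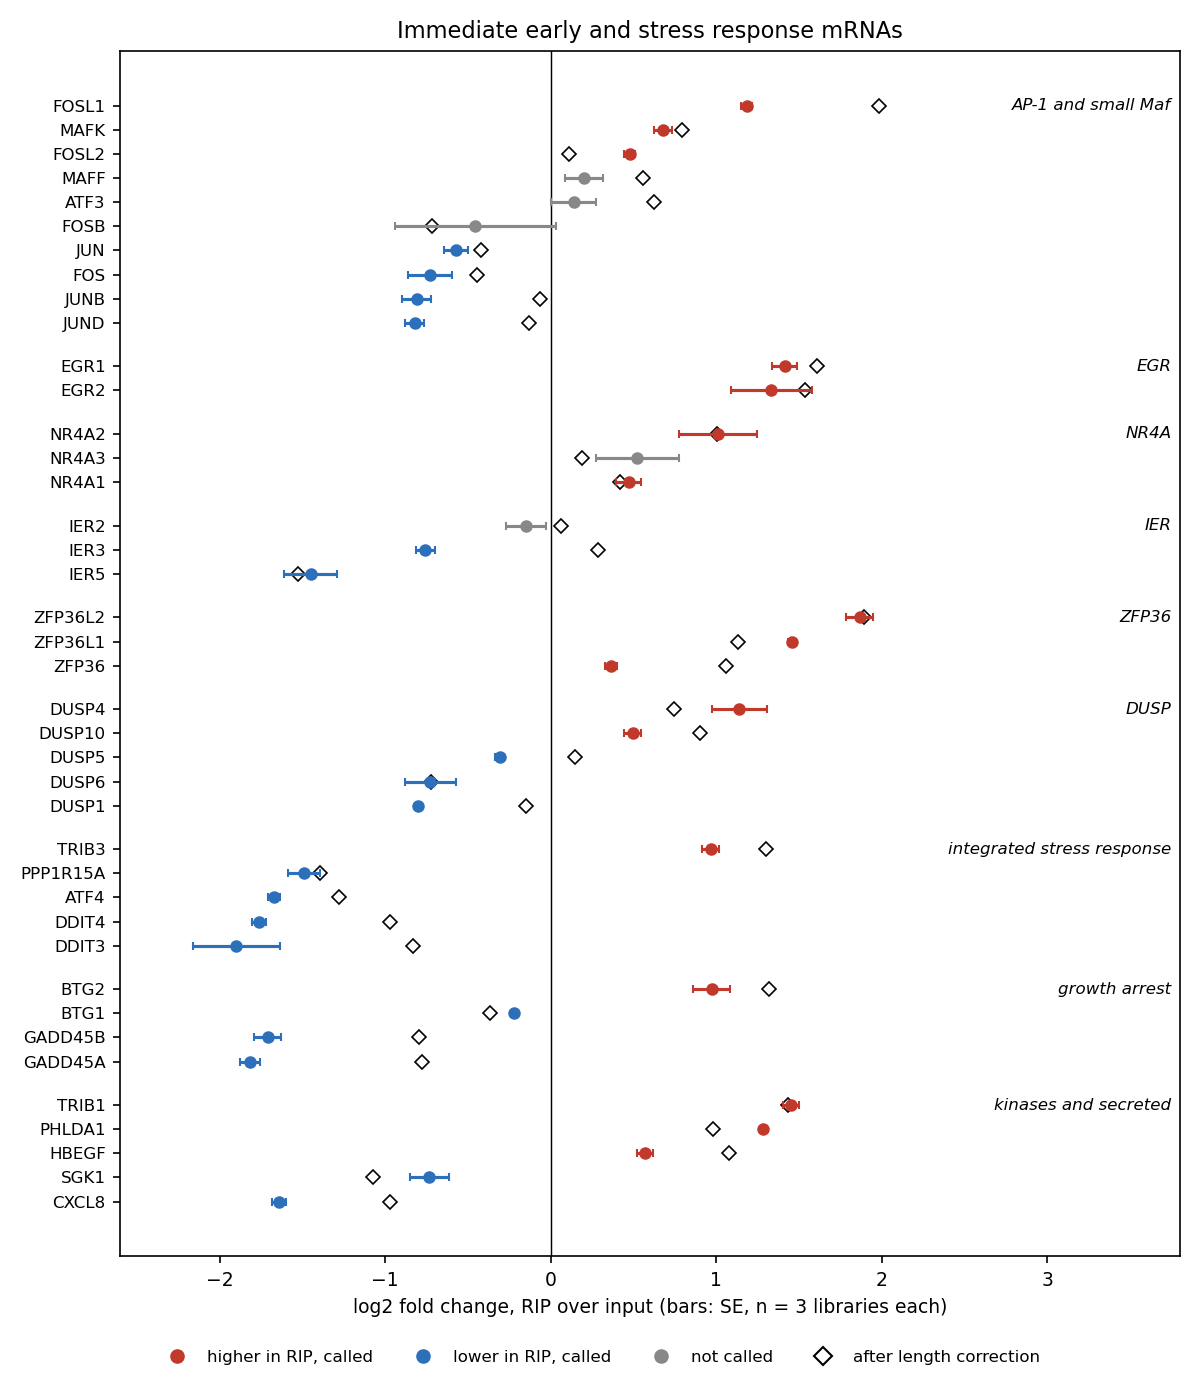
Log2 fold change of RIP over input for the 40 tested members, grouped by role (filled points, with SE bars from 3 libraries a group; red called higher in RIP, blue called lower, grey not called). Open diamonds give the value after correction for gene length. Values run from 1.87 for *ZFP36L2* to -1.90 for *DDIT3*.

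The AP-1 transcription factors bind DNA as dimers, among them those of a FOS and a JUN protein. Among FOS members *FOSL1*, the gene of FRA-1, was the one most enriched. It stood at 407, 398 and 417 CPM in the RIP libraries, against 178, 186 and 174 CPM in the inputs, and each RIP library was above each input (log2 fold change 1.18, SE 0.033, adjusted p = 4.43e-19; 1.98 after the correction for length given below). *FOSL2*, the gene of FRA-2, had 416, 422 and 429 CPM in RIP and 293, 316 and 302 CPM in input. Its groups were also apart, with a smaller log2 fold change of 0.48 (SE 0.033, adjusted p = 3.12e-11), which fell to 0.11 after the length correction.

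*FOS* itself, the founding member, was scarce: 0.915, 0.819 and 0.961 CPM in RIP and 1.48, 1.28 and 1.71 CPM in input. It was depleted without overlap of the groups (log2 fold change -0.73, SE 0.13, adjusted p = 0.0106), and without input library 3 the adjusted p was 0.0534. *FOSB* had 0.858, 0.323 and 0.320 CPM in RIP and 0.563, 0.537 and 0.962 CPM in input, which overlap (log2 fold change -0.46, SE 0.49, adjusted p = 0.294). RIP library 1 was well above the other RIP libraries for *FOSB*, and without it the gene was called depleted (-1.08, adjusted p = 0.0307). *FOSL1* and *FOSL2* made up 99.79% to 99.86% of the CPM of the 4 FOS genes in RIP and 99.44% to 99.64% in input. The FOS sum was 831 ± 14.4 CPM in RIP and 485 ± 15.6 CPM in input (SD, n = 3 each).

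The JUN genes, which encode the dimer partners, were all depleted. *JUN* had 38.6, 33.4 and 37.6 CPM in RIP and 53.2, 52.9 and 56.8 CPM in input. *JUNB* had 30.9, 27.2 and 32.9 CPM in RIP and 55.3, 51.0 and 52.9 CPM in input. *JUND* had 22.7, 22.2 and 24.5 CPM in RIP and 42.6, 39.0 and 41.0 CPM in input. In all 3 genes the highest RIP library was below the lowest input, with log2 fold changes of -0.57 (SE 0.073), -0.81 (SE 0.086) and -0.82 (SE 0.055) and adjusted p of 2.05e-09, 1.05e-11 and 5.06e-12, but *JUNB* and *JUND* were no longer called after the correction for length given below. Their sum was 90.04 ± 6.36 CPM in RIP and 148 ± 4.61 CPM in input, so in summed CPM the FOS genes were higher and the JUN genes lower in RIP. *JUNB* overlaps *HOOK2*, which had 2.22 ± 0.525 CPM in RIP and 3.57 ± 0.634 CPM in input, far fewer reads than *JUNB*.

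Of the other bZIP members, *ATF3*, a repressor induced by many stresses, had 3.05 to 3.92 CPM in RIP and 2.74 to 3.32 CPM in input. The small MAF factors lack a transactivation domain and pair with other bZIP proteins. *MAFF* had 3.39 to 4.17 CPM in RIP and 2.92 to 3.45 CPM in input. Neither gene was called (log2 fold changes 0.14 and 0.20, adjusted p = 0.415 and 0.216), and the sign of both turns negative when only library size sets the scale. *MAFK* was enriched, with 13.7 to 14.1 CPM in RIP and 8.13 to 9.26 CPM in input, apart in all libraries (log2 fold change 0.68, adjusted p = 1.34e-07). *MAFF* and *MAFK* overlap *TMEM184B* and *TMEM184A* in the genome. The part of *TMEM184A* reads in the *MAFK* counts was not tested. *TMEM184B* took far more reads than *MAFF*, with 203 ± 12.5 CPM in RIP and 159 ± 3.92 CPM in input, and since the strand setting is unknown, its part in the *MAFF* counts was not tested.

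The EGR zinc finger factors, which carry serum and MAP kinase signals to later genes, were enriched where they could be tested. *EGR1* (chromosome 5, 138465479 to 138469303, plus strand), whose promoter with its CArG boxes is printed above, had 15.2, 13.4 and 14.5 CPM in RIP and 5.77, 5.27 and 5.13 CPM in input. *EGR2* had 1.601, 1.91 and 1.47 CPM in RIP and 0.880, 0.604 and 0.499 CPM in input. The groups were apart for both, with log2 fold changes of 1.41 (SE 0.074, adjusted p = 1.16e-12) and 1.33 (SE 0.24, adjusted p = 9.05e-05). *EGR3* was too low to test, with read counts of 7, 7 and 8 in RIP and 2, 3 and 6 in input.

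The orphan nuclear receptors of the NR4A family bind DNA without a known classical ligand. *NR4A1* had 14.9, 13.6 and 16.3 CPM in RIP and 10.6, 11.04 and 10.6 CPM in input (log2 fold change 0.47, SE 0.077, adjusted p = 2.67e-05). *NR4A2* had 2.89, 2.705 and 2.47 CPM in RIP and 1.76, 1.24 and 0.998 CPM in input (1.01, SE 0.24, adjusted p = 0.000118). Both were enriched, with all RIP libraries above all inputs. *NR4A3* had 1.03, 1.19 and 1.601 CPM in RIP and 0.810, 1.11 and 0.713 CPM in input, so RIP library 1 lay below input library 2, and it was not called (0.52, SE 0.25, adjusted p = 0.0888). Without that input library it was called (0.73, adjusted p = 0.0432).

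The ZFP36 proteins bind AU-rich elements and bring about the decay of many early response mRNAs, and all 3 of their own mRNAs were enriched. *ZFP36L1* (chromosome 14, 68787655 to 68796243) took the most reads of the members, with 3227, 3181 and 3327 CPM in RIP and 1185, 1165 and 1194 CPM in input. It took 59.5% to 59.8% of all member reads in RIP and 32.6% to 33.7% in input. Every RIP library was far above every input (log2 fold change 1.46, SE 0.022, adjusted p = 1.33e-21). *ZFP36L2* (chromosome 2, 43222402 to 43226606) had 94.0, 91.2 and 102 CPM in RIP and 23.8, 27.5 and 27.3 CPM in input. Its log2 fold change of 1.87 (SE 0.083, adjusted p = 1.26e-19) was, before the length correction, the highest of the members and the 98.2th percentile of all tested genes. *ZFP36*, the gene of tristetraprolin, had 37.6, 37.5 and 38.3 CPM in RIP and 30.5, 29.6 and 27.9 CPM in input (0.37, SE 0.038, adjusted p = 3.10e-06; 1.06 after the length correction). Its groups were apart but close, and when only library size set the scale it was not called (0.12, adjusted p = 0.0513). The sum of all members was 5435 ± 119 CPM in RIP and 3566 ± 17.3 CPM in input, and without *ZFP36L1* it was 2190 ± 46.3 CPM in RIP and 2385 ± 29.6 CPM in input (SD, n = 3 each), so *ZFP36L1* alone set the direction of the sum.

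The IER genes, early response genes of varied function, did not follow the EGR or ZFP36 genes. *IER5*, which encodes a partner of heat shock factor 1, had 5.29, 4.14 and 5.83 CPM in RIP and 14.3, 14.5 and 12.5 CPM in input. *IER3*, a survival factor, had 111, 103 and 104 CPM in RIP and 189.5, 176 and 171 CPM in input. Both were depleted with the groups apart (log2 fold changes -1.45, SE 0.16, and -0.76, SE 0.056; adjusted p = 1.11e-11 and 7.29e-14), although *IER3* changed sign after the correction for length given below. *IER2* had 15.8, 15.3 and 19.4 CPM in RIP and 19.8, 18.8 and 17.3 CPM in input. RIP library 3 was within the inputs and the gene was not called (-0.15, SE 0.12, adjusted p = 0.114), but it was called depleted without that library (-0.25, adjusted p = 0.00805) and when only library size set the scale (-0.39, adjusted p = 0.000356).

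The dual-specificity phosphatases dephosphorylate MAP kinases, and their mRNAs went both ways. *DUSP4*, which acts on ERK in the nucleus, had 4.004, 4.59 and 5.41 CPM in RIP and 2.43, 2.05 and 1.85 CPM in input (log2 fold change 1.14, SE 0.17, adjusted p = 6.12e-07). *DUSP10*, which prefers the stress kinases p38 and JNK, had 64.9, 65.5 and 59.1 CPM in RIP and 44.8, 43.5 and 46.3 CPM in input (0.49, SE 0.054, adjusted p = 4.75e-09). These 2 genes were enriched without overlap. *DUSP1*, the phosphatase first described as an early response to serum and oxidative stress, had 81.9, 80.5 and 83.3 CPM in RIP and 144, 140.3 and 145 CPM in input (-0.80, SE 0.020, adjusted p = 3.41e-15; -0.15 after the length correction). *DUSP5*, a nuclear ERK phosphatase, had 32.6, 33.2 and 33.8 CPM in RIP and 41.97, 39.9 and 41.4 CPM in input (-0.31, SE 0.026, adjusted p = 1.61e-05). *DUSP6*, its cytoplasmic counterpart, had 1.74, 1.59 and 1.70 CPM in RIP and 2.32, 2.65 and 3.35 CPM in input (-0.73, SE 0.16, adjusted p = 0.00136). These 3 genes were depleted, again without overlap, but *DUSP5* changed sign after the correction for length. *DUSP2* had no read in any RIP library and 1 read in 1 input, so no fold is given. Summed over the family the level was 185 ± 1.08 CPM in RIP and 234 ± 4.79 CPM in input. *DUSP1* was the largest part of both sums, with means of 82.0 CPM in RIP and 142.9 CPM in input, so the sum does not describe each gene.

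**Figure D2:**
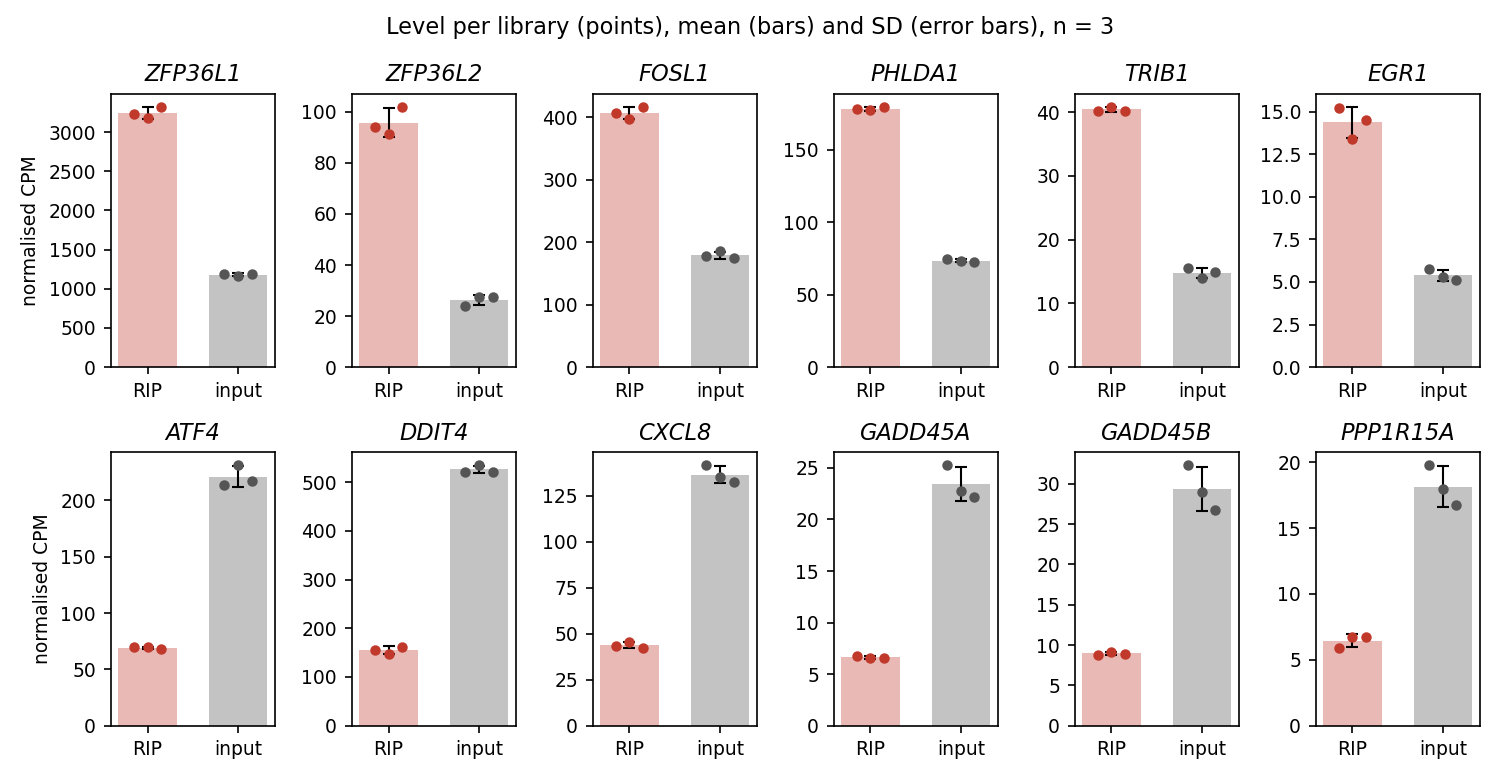
Normalised CPM of 12 members in each library (points), with the mean (bars) and SD (error bars) of 3 RIP and 3 input libraries. In the upper row, from *ZFP36L1* to *EGR1*, all RIP points lie above all input points, and in the lower row, from *ATF4* to *PPP1R15A*, all lie below them.

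Of the 5 members grouped here under the integrated stress response 4 were depleted, each by more than 2-fold, beside 42% of all tested genes depleted and 19.7% by 2-fold or more. *ATF3*, induced by many stresses but placed above with the bZIP members, was not called (0.14). After the correction for length given below the 4 were still depleted, but *DDIT4* (-0.97) and *DDIT3* (-0.83) by less than 2-fold, and *ATF3* was enriched (0.63). *ATF4* (chromosome 22, 39520559 to 39522686), its central transcription factor, had 69.7, 69.6 and 68.3 CPM in RIP and 214, 231 and 217 CPM in input (log2 fold change -1.67, SE 0.036, adjusted p = 2.21e-21). *DDIT4*, whose protein REDD1 restrains mTORC1, had 156, 147 and 162 CPM in RIP and 521, 535 and 522 CPM in input (-1.76, SE 0.044, adjusted p = 4.44e-22). In both genes the inputs were about alike and every RIP library was far below them: levels were 3.19-fold and 3.39-fold lower in RIP. *PPP1R15A*, the gene of GADD34, which brings a phosphatase to eIF2 and so ends the response, had 5.89, 6.75 and 6.73 CPM in RIP and 19.8, 18.0 and 16.7 CPM in input (-1.49, SE 0.095, adjusted p = 1.45e-13). *DDIT3*, the gene of the death-promoting factor CHOP, had 0.670 to 1.14 CPM in RIP and 2.74 to 3.56 CPM in input. Before the length correction it had the lowest log2 fold change of the members (-1.90, SE 0.26, adjusted p = 3.97e-08), at the 4.87th percentile of all tested genes, and after it *IER5* (-1.53) had. *DDIT3* overlaps *MARS1*, which was depleted as well (-1.28), with 40.5 ± 2.38 CPM in RIP and 98.1 ± 1.35 CPM in input, and the part of its reads in the *DDIT3* counts was not tested.

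*TRIB3*, a pseudokinase induced by ATF4 that feeds back on it, was the 1 enriched gene among the 5 grouped under this response. It had 174 to 194 CPM in RIP and 93.9 to 97.1 CPM in input, with no overlap (log2 fold change 0.97, SE 0.053, adjusted p = 4.43e-16). *TRIB1*, a pseudokinase paralog that serves the ubiquitin ligase COP1, was also enriched, with 40.1, 40.9 and 40.2 CPM in RIP and 15.6, 13.9 and 14.9 CPM in input (1.45, SE 0.047, adjusted p = 1.25e-16). The 2 tribbles genes thus stood together although *TRIB3* belongs to a mostly depleted group.

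The growth arrest genes slow the cell cycle after damage or differentiation signals. *GADD45A* had 6.81, 6.60 and 6.53 CPM in RIP and 25.3, 22.8 and 22.2 CPM in input (log2 fold change -1.82, SE 0.060, adjusted p = 3.03e-16). *GADD45B* had 8.81, 9.16 and 8.94 CPM in RIP and 32.3, 28.9 and 26.8 CPM in input (-1.71, SE 0.080, adjusted p = 3.90e-16). The RIP libraries were tightly grouped far below the inputs, 3.52-fold and 3.27-fold lower, and after the length correction both were still depleted, at -0.78 and -0.80. The BTG proteins are adaptors of the deadenylase complex, and their genes moved apart. *BTG2* had 3.92, 3.747 and 4.61 CPM in RIP and 2.11, 2.22 and 1.89 CPM in input (0.97, SE 0.11, adjusted p = 5.17e-06). *BTG1* had 43.4, 44.3 and 44.4 CPM in RIP and 51.4, 52.4 and 49.97 CPM in input (-0.22, SE 0.022, adjusted p = 0.000337). *BTG2* was enriched and *BTG1* slightly depleted, both without overlap.

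Among the kinases, secreted products and other signalling genes, *PHLDA1*, a pleckstrin homology domain protein induced by ERK signalling, had 178, 177 and 179.9 CPM in RIP and 74.5, 73.5 and 72.2 CPM in input (log2 fold change 1.28, SE 0.014, adjusted p = 1.93e-19). *HBEGF*, a ligand of the EGF receptor, had 14.4 to 14.8 CPM in RIP and 9.47 to 10.6 CPM in input (0.57, SE 0.051, adjusted p = 1.18e-06). Both were enriched with the groups apart. *CXCL8*, the neutrophil chemokine interleukin-8, had 43.2, 45.5 and 42.4 CPM in RIP and 142, 135 and 132 CPM in input (-1.64, SE 0.042, adjusted p = 1.72e-20). *SGK1*, a kinase of sodium transport and survival, had 6.63 to 7.88 CPM in RIP and 10.9 to 13.3 CPM in input (-0.73, SE 0.12, adjusted p = 4.05e-07). These last were depleted, and *CXCL8* was 3.12-fold lower in RIP, with a log2 fold change of -0.97 after the length correction.

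Set on a scale per length, the order of the members differed between the groups, as the plot of FPKM levels shows. In RIP *ZFP36L1* was first at 482 ± 12.6 FPKM, followed by *FOSL1* (216 ± 6.05 FPKM), *DDIT4* (81.8 ± 4.41 FPKM), *IER3* (72.1 ± 3.25 FPKM) and *TRIB3* (62.4 ± 4.06 FPKM). In input *DDIT4* was first at 328 ± 7.08 FPKM, followed by *ZFP36L1* (207 ± 2.16 FPKM), *IER3* (144 ± 6.93 FPKM), *FOSL1* (112.5 ± 4.10 FPKM) and *ATF4* (91.9 ± 4.45 FPKM; SD, n = 3 each). The leading genes were thus largely shared: *ZFP36L1* was 1st in RIP and 2nd in input, *FOSL1* 2nd and 4th, and *DDIT4* 3rd and 1st. *ZFP36L2* was 10th in RIP and 20th in input, *PHLDA1* 8th and 18th, and *GADD45A* 23rd and 14th. Some neighbours did not differ beyond their spread, among them *ATF4* and *ZFP36L2* in RIP (24.4 ± 0.268 and 23.9 ± 1.48 FPKM) and *DUSP1* and *CXCL8* in input (77.1 ± 1.02 and 75.4 ± 2.24 FPKM). FPKM uses the library totals without TMM scaling, so ratios of these levels are lower than the fold changes above.

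**Figure D3:**
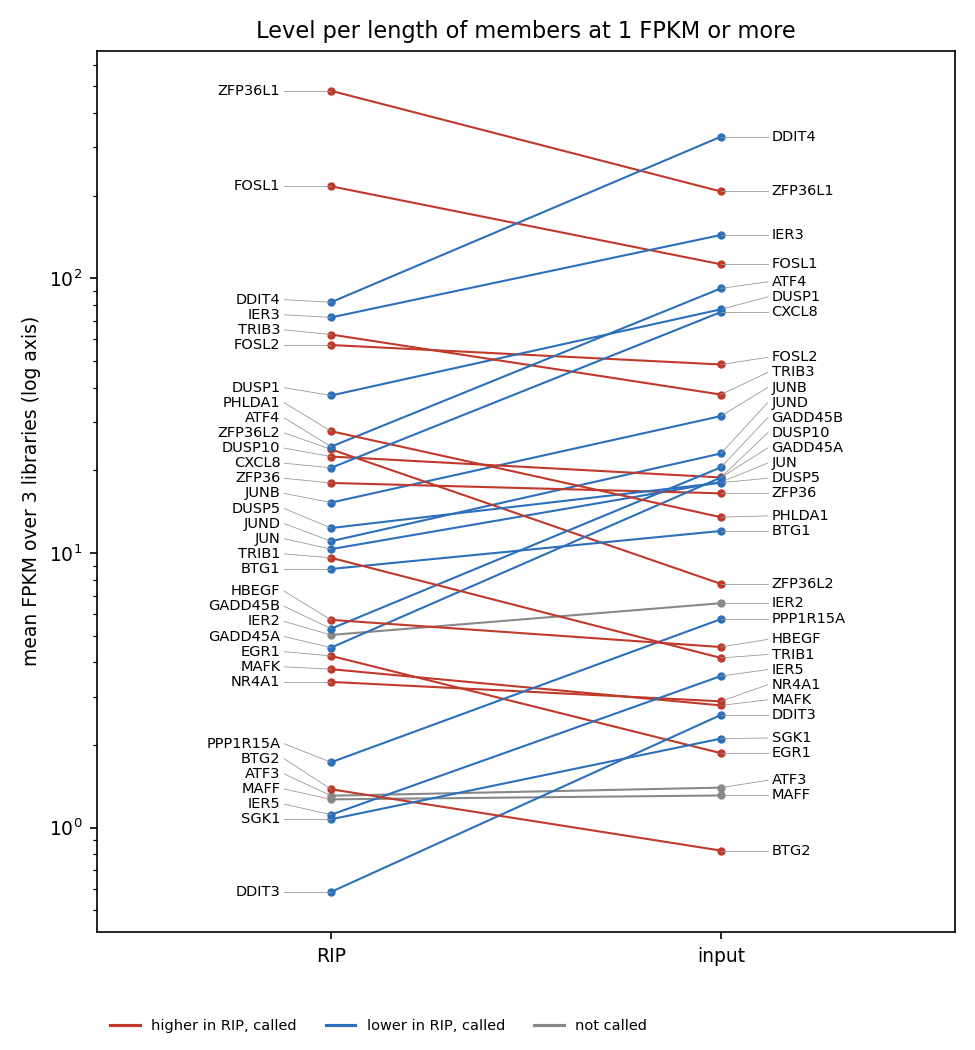
Mean FPKM over 3 libraries (log axis) of the tested members at 1 FPKM or more in at least 1 group, RIP on the left and input on the right, with lines joining the same gene. Red lines are genes called higher in RIP, blue lower, grey not called; *ZFP36L1* and *FOSL1* lead in RIP, *DDIT4* and *ZFP36L1* in input.

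Gene length moved with the fold change, among the members as among all genes. The exonic length that the deposited counts and FPKM imply had a median of 2982.5 nt for the members and 3981 nt for all tested genes. Enriched members had a median of 3380 nt and depleted members 2245 nt, beside 5207 nt and 2925 nt for all enriched and all depleted genes. Spearman's rho of length with log2 fold change was 0.49 over 40 members and 0.44 over 12856 genes, which share the same 6 libraries and are not independent. With input CPM the rho was -0.19 over the members and 0.0023 over all genes. Length cancels in the FPKM ratio of 1 gene between the groups, so dividing by it does not remove this relation.

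After a correction that took out the trend with length, 21 of the 40 members were enriched (52.5%, beside 40.2% of all genes) and 13 depleted (32.5%, beside 40.0%), with a median log2 fold change of 0.17 for the members and -0.0012 for all genes. The same call was kept by 30 members. Short members moved up: *FOSL1*, of 1733 nt, went to 1.98 and was then the highest, and *IER5* at -1.53 the lowest. Long members such as *FOSL2*, of 6799 nt, and *DUSP4*, of 7273 nt, moved down, to 0.11 and 0.75, and were still called enriched. *JUNB* (-0.06, adjusted p = 0.341), *JUND* (-0.13, adjusted p = 0.0538) and *FOS* (-0.45, adjusted p = 0.108) were no longer called, so of the JUN genes *JUN* alone (-0.42) stayed depleted. *IER3*, of 1350 nt, and *DUSP5*, of 2477 nt, changed sign and were called enriched (0.28 and 0.15, adjusted p = 2.64e-06 and 0.0166), while *ATF3* (0.63) and *MAFF* (0.56) became enriched. *ATF4* (-1.28), *DDIT4* (-0.97), *DDIT3* (-0.83), *PPP1R15A* (-1.39), *GADD45A* (-0.78), *GADD45B* (-0.80), *IER5* (-1.53), *CXCL8* (-0.97) and *SGK1* (-1.07) stayed depleted. *ZFP36*, *ZFP36L1*, *ZFP36L2*, *EGR1* and *EGR2* stayed enriched, between 1.06 and 1.89.

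**Figure D4:**
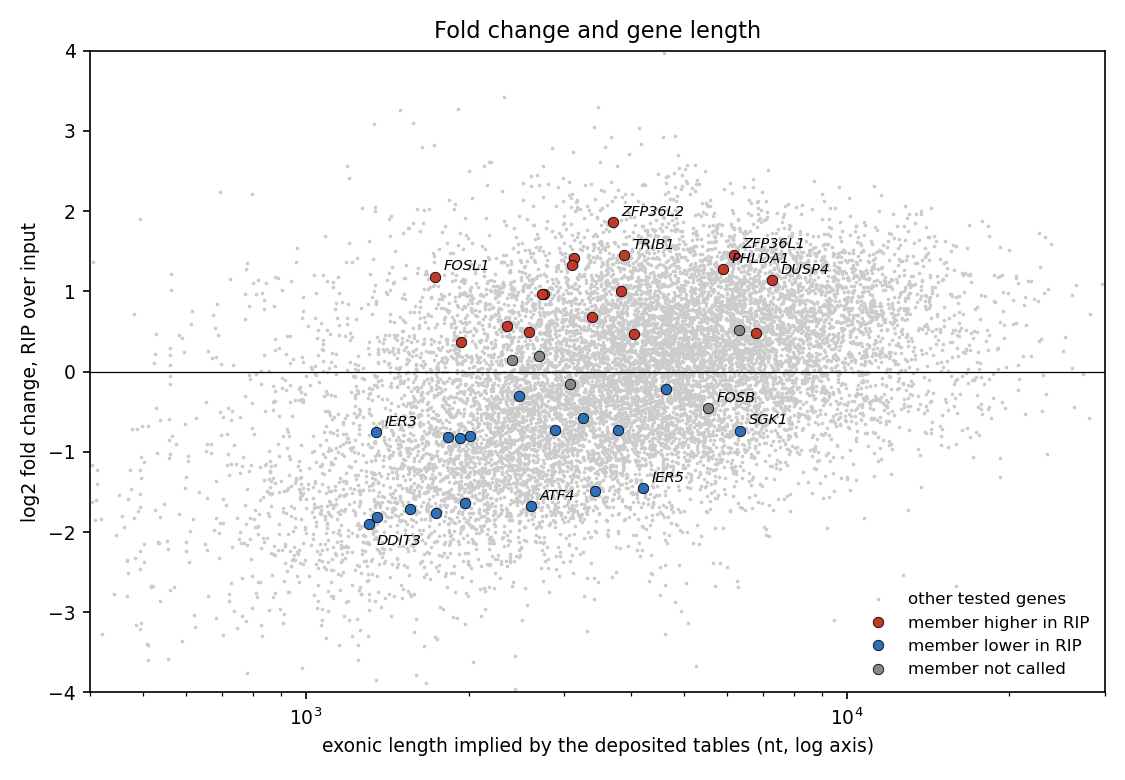
Log2 fold change of RIP over input against exonic length (log axis, nt) for all tested genes (small grey points; 35 lie outside the axes) and for the members (large points, red called higher in RIP, blue called lower, grey not called). *FOSL1*, *ZFP36L2* and *TRIB1* lie high for their length, *IER5*, *SGK1* and *ATF4* low.

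A further feature that the choice of members did not use is how much of a gene's span is exon. In 8 tested members the exonic length was at least 90% of the RefSeq span: *JUN*, *JUNB*, *JUND*, *IER3*, *IER5*, *ATF4*, *PPP1R15A* and *PHLDA1*. For *ATF4* the length implied by the files, 2613 nt, exceeded the RefSeq span of 2128 nt, so the annotations differ there and the ratio does not show its share of exon. Of the 8, 7 were depleted and *PHLDA1*, at 5913 nt the longest, was enriched. Among all 380 tested genes of this kind 27.4% were enriched and 54.5% depleted, with a median length of 2594.5 nt. Among the other 12337 with a span the shares were 41.1% and 41.7%, with a median length of 4041 nt, and the other 32 members had 16 enriched and 11 depleted. These counts are before the length correction. After it *JUN*, *IER5*, *ATF4* and *PPP1R15A* stayed depleted and *PHLDA1* enriched, *JUNB* and *JUND* were not called, and *IER3* was enriched. Whether the share of exon acts beside length was not tested.

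The signalling genes upstream of the members, and other early response genes, were taken from a list of 77, of which 75 were tested. In that list 24 were enriched and 34 depleted, beside 40.7% and 42% of all tested genes, with a median log2 fold change of -0.09 for the list and -0.024 for all genes. After the length correction 30 were enriched and 32 depleted, beside 40.2% and 40.0% of all genes, with a median of -0.05 for the list. The counts of its 3 parts below are to be read against the same shares. Of 17 upstream signalling genes, 9 were enriched and 5 depleted, and after the length correction 7 were enriched and 8 depleted. The ETS factors *ELK3* and *ELK4*, which bind beside SRF at promoters such as that of *EGR1*, had 407 ± 10.7 and 320.1 ± 14.5 CPM in RIP against 80.6 ± 3.00 and 116.8 ± 1.93 CPM in input. *ELK3* was enriched by 2.34 on the log2 scale, the 99.5th percentile of all genes, and *ELK4* by 1.46 (0.95 after the length correction). Their paralog *ELK1* was not called (-0.05, adjusted p = 0.342), but after the length correction it was enriched (0.22). *MAPK3*, the gene of ERK1, was enriched by 0.79, whereas some kinases above and below it were depleted: *MAP2K1* (-0.90) and *MAP2K2* (-1.33, and -0.52 after the length correction), which encode MEK, and *RPS6KA1* (-1.52), which encodes the ERK substrate RSK1. *RPS6KA3*, which encodes RSK2, was enriched by 0.66, and by 0.19 after the length correction. *SRF* itself was not called, at -0.03.

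Of 19 eIF2 kinase and stress genes, 4 were enriched and 11 depleted, and after the length correction 6 were enriched and 10 depleted. The eIF2 kinases were on both sides. *EIF2AK1*, the heme-regulated kinase, had 902 ± 7.85 CPM in RIP and 268 ± 13.8 CPM in input (1.75). *EIF2AK2*, the kinase PKR, was also enriched (1.48, and 0.99 after the length correction), while *EIF2AK3* (PERK) and *EIF2AK4* (GCN2) were depleted (-0.92 and -0.32). Among the genes downstream, *NUPR1*, a stress-induced chromatin protein, stood at -2.05 and *ASNS*, asparagine synthetase, at -1.69. *EIF2B5*, a subunit of the exchange factor that eIF2 phosphorylation inhibits, stood at -1.33. The cystine transporter gene *SLC7A11* was enriched (0.48), but not after the length correction (-0.01).

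Of 39 other early response genes tested, 11 were enriched and 18 depleted. After the length correction 17 were enriched and 14 depleted. *NFKBIA*, the inhibitor that ends NF-kB signalling, had the lowest log2 fold change of the whole list at -2.51 (after the length correction -1.95, with *NUPR1* lower at -2.29), with 13.9 ± 0.899 CPM in RIP and 79.4 ± 1.51 CPM in input (SD, n = 3 each). *IL6*, an inflammatory cytokine like *CXCL8*, stood at -1.58 (-0.86 after the length correction), and *CCN1*, a secreted matrix protein gene, at -1.41. Enriched genes included *SPRY2*, an inhibitor of receptor tyrosine kinase signalling (0.97), *TIPARP*, an ADP-ribosyltransferase (0.82), and *PIM1*, a serine/threonine kinase (0.82). *ARC* and *EGR4* were too low to test. The members and these lists are set side by side in the plot of pathway genes. Adjusted p values for the named genes that were called ran from 3.78e-24 for *ELK3* to 7.20e-09 for *SLC7A11*, leaving aside *MAPK3*, *RPS6KA3*, *EIF2AK3* and *EIF2AK4*, which are named for their families.

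**Figure D5:**
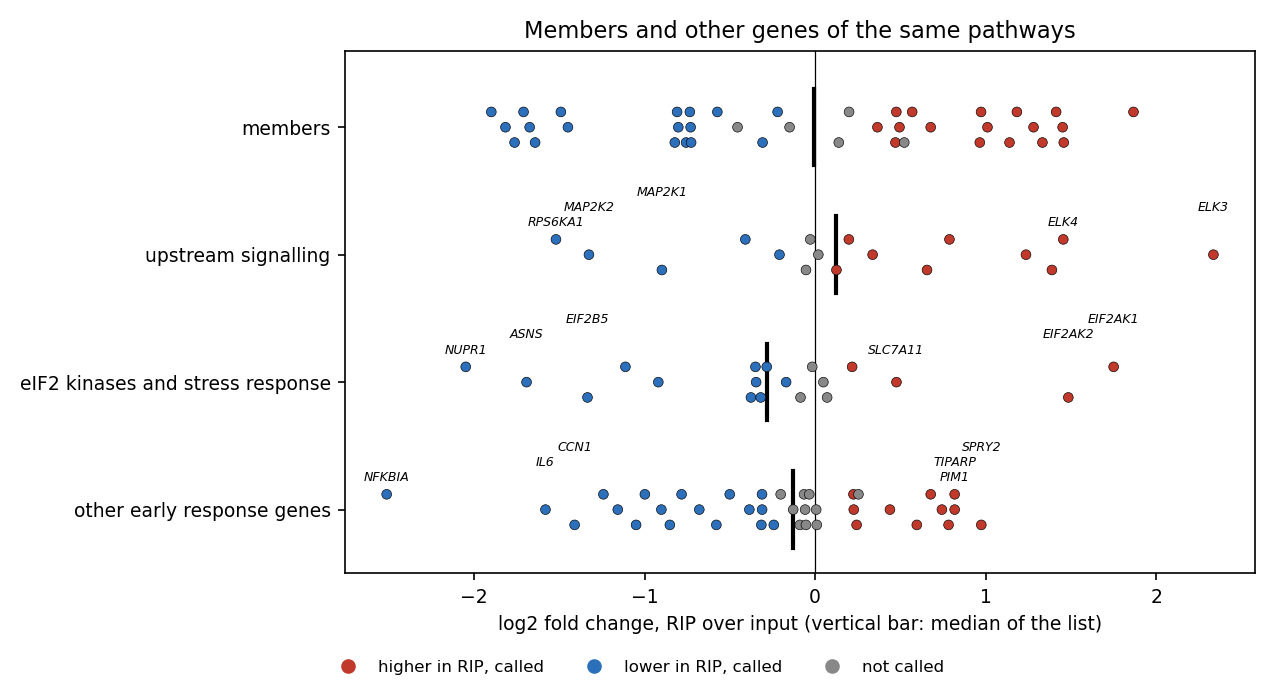
Log2 fold change of RIP over input for the members and for 75 other genes of the same pathways (points; red called higher in RIP, blue called lower, grey not called), with the median of each list as a vertical bar. Medians lie at -0.0056 for the members, 0.12 for upstream signalling, -0.28 for eIF2 kinases and stress response and -0.13 for the other early response genes. These values are before the length correction, after which the medians were 0.17, -0.11, -0.26 and 0.07 in the same order.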

How the data were processed

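RNA of 3 IGF2BP2 RIP and 3 input libraries of 786-O cells was sequenced. The titles gave each library's group and number. Tools named in the submitters' processing notes are STAR 2.7.10a, featureCounts, fastp 0.23.2 and DESeq2, with the build hg38. The annotation, the strand setting and the handling of multiply aligned reads were not given in the sources used here. The authors deposited raw counts per gene symbol and an FPKM table of the same genes. The deposited FPKM are those counts scaled by column totals and by 1 whole-number length per gene, which served as exonic length.

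Genes were kept by filterByExpr (minimum 10 reads), which left 12856 of 20020, scaled with TMM and tested with edgeR 4.0.16 (quasi-likelihood, robust, R 4.3.3), with Benjamini-Hochberg adjustment over all tested genes. SEs come from the spread of log2 CPM (prior count 2) between libraries. The biological coefficient of variation was 4.55%. The code was tested on simulated data. The length correction used loess curves (span 0.3) of each library's deviation on log2 length as offsets. Coordinates are RefSeq spans (GRCh38.p14).

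Members and lists were chosen with earlier results of these data known. Values per library are given for members that were called, averaged 5 CPM or more and changed 2-fold or more and for paralog families, and for other members as ranges. Of the other pathway genes, up to 3 called genes per direction and list with the largest changes were named. Outside this rule, *SRF*, *ELK1*, *MAPK3*, *RPS6KA3*, *EIF2AK3* and *EIF2AK4* were named after their values were seen. One gene that this rule names is not reported here. The named members' places were chosen likewise. Replicates differed beyond sampling noise (chi-square per gene 3.43 to 8.47). Alternatives were other scalings, DESeq2 1.42.0, limma-voom (limma 3.58.1), other filters, a test against a 1.5-fold change, limma on log2 FPKM, a replicate block, the length correction and leaving out each library.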

Additional observations from a re-analysis of the deposited data

How the results depend on the processing

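Of the 40 tested members, all kept direction and call with DESeq2, DESeq2 size factors, limma-voom, no filter and the replicate block. Same-numbered libraries did not deviate together (correlations of deviations 0.036, -0.046 and 0.035), so the numbers were not taken as pairs; with the replicate block 5210 genes were enriched and 5390 depleted, and 17 and 18 members. The members' median log2 fold change moved to -0.25 with library size alone, -0.23 with a filter of 5 CPM (29 members), -0.23 on log2(FPKM + 0.1), 0.17 with the length correction and 0.17 (0.1679) with length correction and replicate block. Library size alone lowered the median of all genes to -0.26, and the enriched share of calls was 38.9%, 45.5% with upper-quartile scaling and 38.7% to 38.8% on log2 FPKM, against 49.2% with TMM. Against a 1.5-fold change, 2973 genes were enriched and 3358 depleted, with 11 members enriched and 13 depleted. Of the other pathway genes, 14 were enriched and 17 depleted. The members no longer called in that test were *FOS*, *FOSL2*, *JUN*, *MAFK*, *NR4A1*, *ZFP36*, *DUSP5*, *DUSP6*, *DUSP10*, *BTG1* and *HBEGF*. Signs turned for *ATF3* with library size alone (-0.10), log2(FPKM + 1) (-0.0570) and log2(FPKM + 0.1) (-0.0937), and for *MAFF* likewise (-0.0418, -0.0269 and -0.0447). With the length correction they turned for *IER2* (0.0634), *IER3* (0.28) and *DUSP5* (0.15), and with the block added as well (0.0612, 0.28 and 0.15). These members are close to 0 or, for *IER3* and *DUSP5*, shorter than the median gene. The causes of the moves were not tested. Leaving out 1 library gave 5103 to 5170 genes enriched and 5271 to 5348 depleted, with 17 to 18 members enriched and 17 to 19 depleted. Depth limits *FOS*, *FOSB*, *EGR2*, *EGR3*, *NR4A2*, *NR4A3*, *DUSP2*, *DUSP6* and *DDIT3*, all near or under 3 CPM in both groups. *ATF3* (3.41 CPM in RIP and 3.09 CPM in input) and *MAFF* (3.72 and 3.26 CPM) lay slightly above.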
